A study of Homo sapiens with 30 samples.

Results

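The CANX knockout of the factor VIII-secreting cell line HEK28 was compared with 7 other knockouts of the same line. Its members are the 3 libraries labelled as CANX knockouts, set against the 21 libraries of the other knockouts, out of 30 libraries in the series. HEK28 is a human embryonic kidney (HEK293) line that releases coagulation factor VIII, the product of F8, and the design asks what the loss of single genes does to that release. Each of the 8 lines carries 1 CRISPR knockout: of CANX, of CALR, of the cargo receptor genes LMAN1 and MCFD2, of ATG7, or of GABARAP, GABARAPL1 or GABARAPL2. All lines share the HEK28 background, none was treated, and RNA was taken from six-well plates at roughly 70% confluency. There were 3 libraries per line, and the unmodified HEK28 and parental lines were not used as a reference here. Each knockout is represented by 1 line, and the labels do not say whether a line is a clone or a pool, or whether its 3 libraries came from separate cultures. The p-values therefore measure the spread between these libraries, which may be technical, and an effect of the lost gene and a property of the line cannot be told apart. In RNA from whole cultures, fewer cells of a type and less RNA per cell cannot be told apart either.

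CANX encodes calnexin, a membrane-bound lectin of the endoplasmic reticulum (ER) that holds newly made glycoproteins until they fold, and CALR encodes its soluble relative calreticulin. When proteins misfold in the ER, several sensors can respond: ATF6 and the IRE1-XBP1 branch induce ER chaperones, while PERK slows translation through eIF2 and allows the factor ATF4 to be made. The kinases GCN2, HRI and PKR act on eIF2 as well, so the shared ATF4 branch, called the integrated stress response, also answers amino acid shortage and other stresses. ATF4 and its partner CHOP (DDIT3) induce genes of amino acid synthesis, amino acid transport and transfer RNA charging.

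The assay was 3' RNA-seq, in which each read is a tag from near a transcript's 3' end, and the level given below is the deposited log2 value: reads per gene length and library size, known up to a constant. A difference is the CANX knockout mean minus the mean of the 7 other line means on that log2 scale, tested with limma and the Benjamini-Hochberg adjustment at 0.05. Reads recovered from the deposited values, for all but 68 genes, came to 341301, 397490 and 2197348 in the CANX knockout libraries. In the other knockout libraries they came to between 253271 and 4054925, with a median of 831413. Pearson's r between CANX knockout libraries, across genes, was 0.946 to 0.965, and library 2 of the LMAN1 knockout stood apart from its group. Markers of the HEK293 line with recovered reads, thus without NEFM, summed to 2120 to 2200 CPM in the CANX knockout and to 1860 to 2810 in the others. CPM here means recovered reads scaled to a common library total. Of 16 such markers 12 were listed in the table, and KRT19, SOX11, DKK1 and EPCAM were not. Of 12 liver markers 0 were listed. Of 14 fibroblast and endothelial markers 3 were listed, at 2.93 to 25.9 CPM in the CANX knockout and 7.46 to 35 in the others.

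The targeted gene was lower in all 3 CANX knockout libraries. CANX (ENSG00000127022, chr5:179678628-179730925, GRCh38) stood at 8.59, 8.69 and 8.66, against a lowest value of 9.46, a median of 9.79 and a highest value of 10.27 in the 21 other libraries. The groups did not overlap. CANX fell by 1.15 on the log2 scale, to 0.451 of the level in the other lines (95% confidence interval of the difference -1.34 to -0.95, adjusted p = 4.88e-07, limma). The transcript therefore remained measurable, with 895 reads in the 3 libraries, and its 3' tags do not show whether the protein was lost. F8 stood at 9.23, 9.11 and 9.09, against 8.75 to 9.93 with a median of 9.18, and the groups overlapped. The F8 difference was -0.06 (95% confidence interval -0.24 to 0.11, adjusted p = 0.738, limma). A change of more than 0.24 in either direction from the average of the 7 other lines lay outside the interval. That interval does not hold the spread between the lines. Their F8 means ran from 8.81 (GABARAPL2 knockout) to 9.81 (CALR knockout), around a CANX knockout mean of 9.14. Without the CALR knockout line in the reference the F8 difference was 0.03.

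The 6 other targeted genes that did not pass in this comparison were CALR (0.46), MCFD2 (0.36), GABARAP (-0.34), GABARAPL1 (0.20), GABARAPL2 (0.53) and ATG7 (0.24). Each was set against a reference that holds its own knockout line. LMAN1 passed, at 0.65 (adjusted p = 0.0198), in a reference that holds its own knockout line, and not without CANX knockout replicate 2 (0.13) or 3 (0.103). Against the 6 lines that are not LMAN1 knockouts the LMAN1 difference was 0.17 (SE 0.12, adjusted p = 0.48), and that of CALR without the CALR knockout line was 0.10 (SE 0.18, adjusted p = 0.814). Likewise without its own line, MCFD2 differed by 0.14, GABARAP by -0.43, GABARAPL1 by 0.03, GABARAPL2 by 0.43 and ATG7 by 0.08. None of these passed (adjusted p from 0.353 to 0.964, limma).

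Of 11557 genes tested, 369 passed (3.19%). The 154 higher genes (1.33%) included 59 changed by at least 2-fold, and the 215 lower genes (1.86%) included 89. The 3 CANX knockout values lay outside the whole range of the 21 other libraries for 126 genes (1.09%), 71 above it (0.614%) and 55 below it (0.476%). Both criteria held for 105 genes (0.909%), 55 higher and 50 lower. Counted in the same way, each other line lay outside the range of the rest for between 42 genes (0.363%, GABARAPL1 knockout) and 468 genes (4.05%, GABARAPL2 knockout), so the count for CANX stood within the spread of the lines. When the CANX knockout was set against each of the 7 lines singly, 4 genes were higher than in all 7 and 13 were lower. The 4 higher genes were CD4, CHAC1, ASNS and STC2. The 13 lower genes were CANX, SQSTM1, CNOT6, RACK1 and TRIM52-AS1 on chromosome 5, UBE2G2, SLC19A1, PTTG1IP and CH507-9B2.5 on chromosome 21, NOLC1, WASHC2C and RPS24 on chromosome 10, and SNHG25.

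The counts depended on how the spread was taken. With the 21 other libraries as 1 group, so that differences between lines enter the spread, 86 genes passed, 18 higher (0.156%) and 68 lower (0.588%). With weights from the recovered reads (voom) 821 passed, 550 higher and 271 lower, and with an offset of 2 reads 327 passed, 177 higher and 150 lower. Without CANX knockout replicate 1 the count was 164, without replicate 2 it was 169, and the 126 genes outside the range became 253 and 260. Without replicate 3 the 154 higher genes became 71, and the genes outside the range 313.

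The gene with the largest positive difference was CD4 (ENSG00000010610, chr12:6786858-6820808), a T-cell co-receptor. CD4 stood at 8.60, 8.34 and 8.13 in the CANX knockout, against 1.21 to 5.49 with a median of 2.51. In reads this was 22, 21 and 96, against 0 to 3 in each other library, and the groups were far apart. CD4 rose by 5.72 (SE 0.39, adjusted p = 4.83e-08, limma), and it passed in the fit with 1 reference group as well (adjusted p = 2.15e-06). CD4 reached the threshold for testing, 12.78 CPM, only in the CANX knockout libraries, so these p-values are not independent support. The other markers of blood cells did not accompany it: without CD4 they summed to 15.1 to 135 CPM in the CANX knockout and to 6.68 to 204 in the others, and CD3D, CD3E, CD8A, CD14 and MS4A1 were not listed. PTPRC, which marks all white blood cells, had 7 reads in the 3 CANX knockout libraries and 79 in the 21 others.

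Several other genes with large differences varied widely among the 7 lines. STMN2, a neuronal microtubule regulator, stood at 3.77, 4.54 and 4.13 against -4.03 to 3.59 with a median of -0.87. ESRG, a noncoding RNA known from pluripotent stem cells, stood at 9.58, 9.42 and 9.53 against 2.43 to 8.81 with a median of 5.49. The CANX knockout lay above every other library for both, but the next line was close: the GABARAP knockout averaged 3.30 for STMN2 and the ATG7 knockout 8.49 for ESRG. STMN2 rose by 4.45 (adjusted p = 0.000629) and ESRG by 3.69 (adjusted p = 0.000116, limma), and with 1 reference group the adjusted p was 0.141 and 0.104. The noncoding genes RP3-467D16.3 (5.11) and RP11-69I8.2 (4.51) on chromosome 6, MAGEB2 (2.67), a cancer-testis antigen, and SCIN (2.18), an actin-severing protein, followed the same pattern, with adjusted p of 0.131, 0.0707, 0.0532 and 0.0713 in that fit. RP11-181K12.1 (3.00) and RP11-54H7.4 (2.82) did too, at 0.151 and 0.25. For ESRG, SCIN and these 4 RP genes the next lines were the ATG7 and GABARAPL1 knockouts. RP3-467D16.3 averaged 3.64 and 4.22 in them and -3.70 to -0.48 in the remaining lines. STMN2 and MAGEB2 did not share that order. RP11-54H7.4 lost its call without any 1 of the 3 CANX knockout libraries (adjusted p up to 0.143) and without the GABARAP (0.0586) or GABARAPL2 (0.0968) knockout line. Of 14 neuron markers 7 were listed, and their sum was 398 to 536 CPM against 298 to 837. Besides STMN2 the neuron marker UCHL1 passed, at -0.51 (adjusted p = 0.0013, and 0.385 with 1 reference group).

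**Figure D1:**
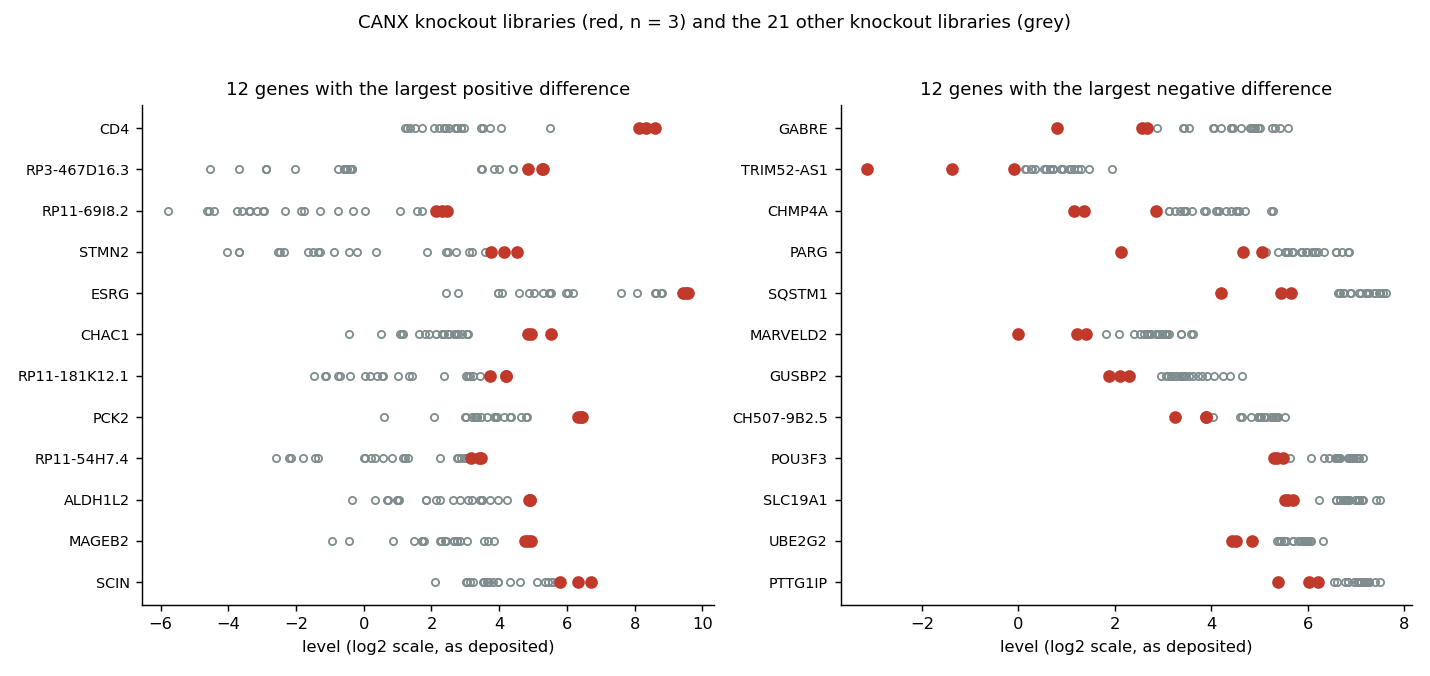
Deposited log2 levels (x axis) of the 12 genes with the largest positive (left) and the 12 with the largest negative difference (right) that passed limma and lay outside the range. Red points are the 3 CANX knockout libraries and grey circles the 21 others: CD4 is separated by a wide gap, while RP3-467D16.3, STMN2 and ESRG spread over several log2 units among the other lines.

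Targets of ATF4 and CHOP made up the list with the most higher genes of the 36 examined. The lists were chosen with earlier results of these data known, so the shares below describe the list and do not test it. Of its 51 tested members 28 rose, 0 fell and 17 lay above the whole range of the 21 other libraries, where all tested genes gave 1.33%, 1.86% and 0.614%. The median difference of the list was 0.88, against 0.01 over all genes tested. Computed for each library alone, the list median was 0.81, 0.89 and 0.80 in the CANX knockout and at most 0.34 in any other library (GABARAPL2 knockout, replicate 1). The groups did not overlap. The 28 genes were CHAC1, PCK2, ALDH1L2, SLC6A9, ASNS, STC2, SLC7A11, PSAT1, DDIT3, NUPR1, EIF4EBP1, WARS, DDIT4, CARS, MTHFD2, SESN2, GPT2, MARS, HERPUD1, GARS, PHGDH, SLC7A1, YARS, SLC7A5, IARS, AARS, SARS and NARS. With 1 reference group 10 of them passed (background 0.156%), and 16 to 18 passed when 1 CANX knockout library was left out. Of the 51 tested members, 2 lie in the chromosomal stretches described further on, of which DDIT4 was higher. Another member, ALDH1L2, reached the CPM threshold for testing only in the CANX knockout libraries.

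Promoter sequence near some of these genes carries the element that ATF4 binds with C/EBP partners. The core TGATGNAA was searched on both strands in RefSeq promoter windows (GRCh38.p14, 250 bases before to 50 after the gene's start). It occurred in 4.46% of 27305 promoters, in 10 of the 22 higher genes of the list with a window (45.5%) and in 6 of 20 tested list genes that did not pass (30.0%). The second motif, CCAAT and CCACG with 9 bases of any kind between them, is the ER stress response element of ATF6 and its partner NF-Y. It does not overlap the first, and occurred in 0.0916% of all promoters, in 0 of 44 ATF4 and CHOP list genes and in 6 of 26 genes of the ATF6 and XBP1 list (23.1%). The windows below are in gene orientation with the motif in capitals, as its reverse complement where it lies on the other strand. They show the core at 5 genes that rose, at CEBPG, which did not pass, and the ER stress response element at HSPA5 and XBP1, which did not pass either. A match describes these letters and is not a measured binding site.
CHAC1, chr15:40953251-40953280, plus strand: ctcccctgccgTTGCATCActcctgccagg
ASNS, chr7:97872458-97872487, minus strand: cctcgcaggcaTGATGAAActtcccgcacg
CARS (CARS1 in RefSeq), chr11:3057407-3057436, minus strand: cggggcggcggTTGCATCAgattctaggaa
AARS (AARS1 in RefSeq), chr16:70289675-70289704, minus strand: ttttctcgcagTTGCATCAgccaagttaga
HERPUD1, chr16:56931955-56931984, plus strand: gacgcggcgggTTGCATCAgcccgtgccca
CEBPG, chr19:33374060-33374089, plus strand: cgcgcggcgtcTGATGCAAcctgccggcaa
HSPA5, chr9:125241385-125241414, minus strand: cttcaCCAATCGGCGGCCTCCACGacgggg
XBP1, chr22:28800597-28800626, minus strand: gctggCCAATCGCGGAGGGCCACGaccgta

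ATF4 itself, the transcription factor of the branch, stood at 9.80, 10.04 and 10.09 against 8.52 to 10.22 with a median of 9.36. The groups overlapped, and the next line, the LMAN1 knockout, averaged 9.77. ATF4 rose by 0.69 (SE 0.12, adjusted p = 0.0017, limma), a call lost with 1 reference group (adjusted p = 0.269). DDIT3, which encodes CHOP, stood at 1.16, 1.31 and 1.37 against -1.17 to 0.84, without overlap. DDIT3 rose by 1.34 (SE 0.29, adjusted p = 0.0129), a call lost with 1 reference group (adjusted p = 0.0713) and without any 1 of the CANX knockout libraries (0.0578 to 0.0734), and 67 reads lay behind it in the CANX knockout. Of the 23 tested regulators of the branch 3 rose and 0 fell (1.33% and 1.86% of all tested genes). The third was EIF2S3, a subunit of eIF2, at 0.47 (adjusted p = 0.0492, limma). Its call was lost with 1 reference group (0.297), without any 1 CANX knockout library (0.0553 to 0.268) and without the ATG7, GABARAP or GABARAPL1 knockout line (0.0626, 0.104 and 0.0919). The 4 eIF2 kinases did not pass: EIF2AK1 differed by 0.57, EIF2AK2 by -0.06, EIF2AK3 (PERK) by 0.37 and EIF2AK4 (GCN2) by 0.02. PPP1R15A, the feedback phosphatase subunit, differed by -0.22 (adjusted p = 0.705).

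CHAC1, a glutathione-degrading enzyme and CHOP pathway target, showed the largest difference of the list. It stood at 5.52, 4.94 and 4.84 in the CANX knockout, against -0.44 to 3.09 with a median of 2.34. Every CANX knockout library was higher than every other library, and the next line, the GABARAPL1 knockout, averaged 2.98. CHAC1 rose by 3.04 (SE 0.29, 8.25-fold, adjusted p = 4.18e-06, limma; 0.00257 with 1 reference group). STC2, a secreted glycoprotein hormone, stood at 8.12, 8.10 and 7.84 against 5.41 to 6.95, again without overlap, and rose by 1.76 (SE 0.19, adjusted p = 1.87e-05; 0.000499 with 1 reference group). SESN2, an inhibitor of mTORC1 signalling, stood at 10.52, 10.22 and 10.20 against 8.79 to 9.99 and rose by 0.92 (adjusted p = 0.000175). EIF4EBP1, which represses cap-dependent translation, stood at 11.03, 11.02 and 10.71 against 8.54 to 10.31 and rose by 1.22 (adjusted p = 0.00204). Both were outside the range of the others, and both passed with 1 reference group (adjusted p = 0.00471 and 0.0131).

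Enzymes that make amino acids and feed one-carbon metabolism were among the higher genes. Of 21 tested genes of serine, glycine, proline and asparagine synthesis 6 rose and 0 fell, where 1.33% and 1.86% of all tested genes did. The list median was 0.47, against 0.01 over all genes. The 6 that rose are all ATF4 and CHOP list genes counted above, so this count is not a separate result. ASNS, asparagine synthetase, stood at 10.11, 9.75 and 10.24 against 6.84 to 8.93 with a median of 8.28, and rose by 1.89 (SE 0.19, 3.7-fold, adjusted p = 5.82e-06; 0.0068 with 1 reference group). The ASNS groups did not overlap, and the next line, the GABARAP knockout, averaged 8.76. PSAT1, of serine synthesis, stood at 5.94, 5.71 and 6.41 against 3.78 to 5.85, with 1 GABARAPL2 knockout library inside the CANX range, and rose by 1.43 (adjusted p = 0.000571; 0.0485 with 1 reference group). PHGDH, the first enzyme of that route, rose by 0.84 (adjusted p = 0.00234) and GPT2, mitochondrial alanine aminotransferase, by 0.89 (adjusted p = 0.00236), and both passed with 1 reference group (0.0346 and 0.0227). ALDH1L2, of mitochondrial folate metabolism, differed by 2.68 (adjusted p = 0.00922) on 44 reads in the CANX knockout, and MTHFD2 by 0.95 (adjusted p = 0.0137). Both calls were lost with 1 reference group (0.0904 and 0.168), ALDH1L2 also without CANX knockout replicate 1 (0.0553) or 2 (0.0548), and MTHFD2 without any 1 of the 3 (0.0514 to 0.0836). ALDH1L2 reached the CPM threshold for testing only in the CANX knockout libraries, so its p-value is not independent support. The other 15 tested members did not pass, among them PSPH (0.50), SHMT2 (0.32), MTHFD1L (0.73, above the range in all 3 libraries) and GOT1 (-0.19). PCK2, the mitochondrial enzyme that makes phosphoenolpyruvate, stood at 6.41, 6.45 and 6.32 against 0.60 to 4.83, and rose by 2.85 (SE 0.48, adjusted p = 0.0017; 0.0057 with 1 reference group).

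**Figure D2:**
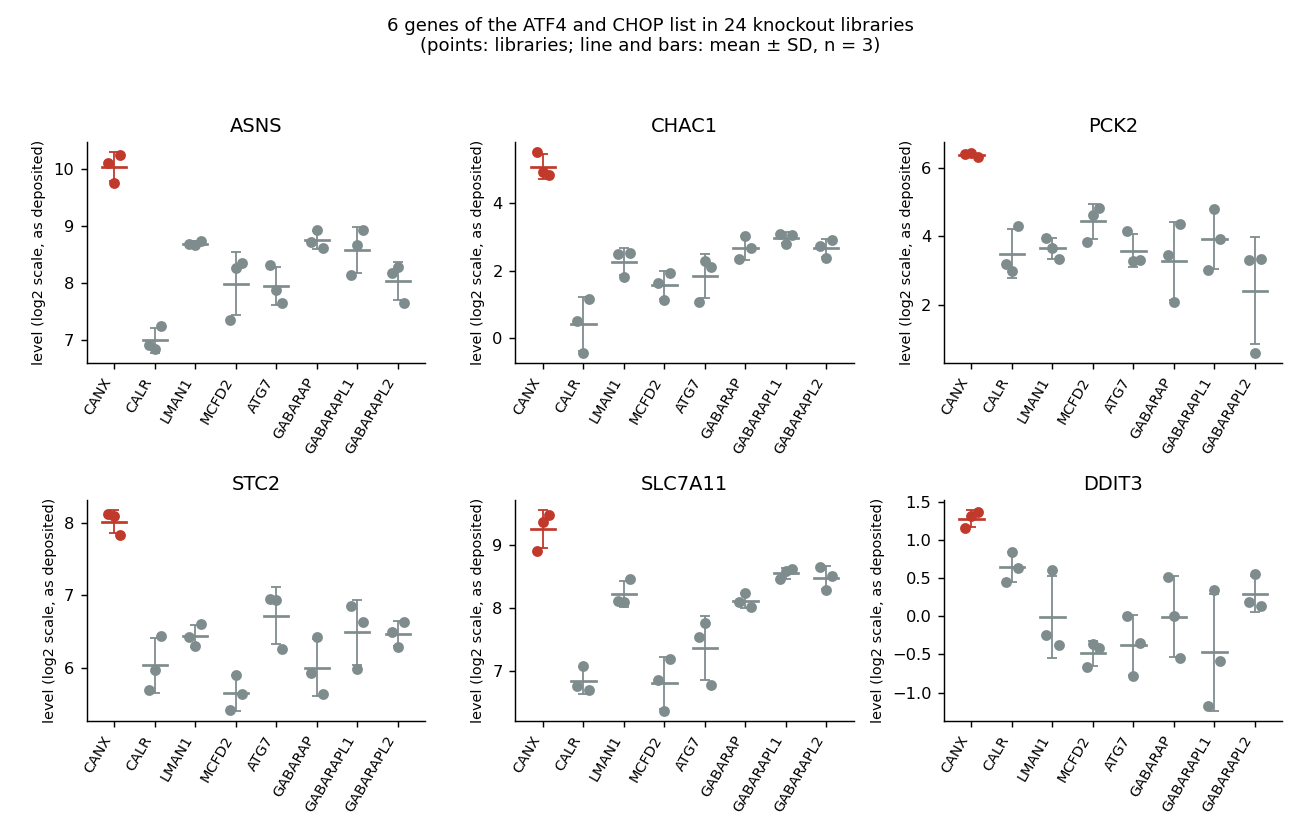
Deposited log2 levels (y axis) of 6 ATF4 and CHOP list genes in the 8 knockout lines; points are libraries, lines and bars the mean ± SD of 3. In all 6 panels the 3 red CANX knockout points lie above the other 21, and for ASNS and CHAC1 the CALR knockout is the lowest line.

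Amino acid transporters bring in or exchange amino acids at the cell surface. Of 19 tested transporters 5 rose and 1 fell (1.33% and 1.86% of all tested genes), and the list median was 0.34. Its library medians, 0.44, 0.45 and 0.49, overlapped with those of the others, which reached 0.46. Of the 5 that rose, all but SLC43A1 are ATF4 and CHOP list genes already counted above. SLC7A11, the cystine importer, stood at 8.90, 9.36 and 9.46 against 6.38 to 8.65 and rose by 1.47 (SE 0.17, adjusted p = 3.84e-05), without overlap, although its adjusted p with 1 reference group was 0.0981. SLC6A9, a glycine transporter, stood at 6.39, 5.99 and 5.73 against 2.13 to 4.97 and rose by 2.03 (SE 0.40, adjusted p = 0.00632; 0.0117 with 1 reference group), a call lost without CANX knockout replicate 1 (0.0664). SLC7A1 (0.82), SLC7A5 (0.65) and SLC43A1 (0.92) also passed, and each lost its call with 1 reference group (0.127, 0.243 and 0.14) and without CANX knockout replicate 1 (0.0921, 0.0638 and 0.195) or 2 (0.0644, 0.169 and 0.0695). SLC7A5 lost it without replicate 3 (0.13) and without the CALR (0.0808) or MCFD2 (0.0739) knockout line as well, and SLC43A1 without the GABARAP (0.0549) or GABARAPL2 (0.0585) knockout line. SLC6A8, which imports creatine, fell by 0.83 (adjusted p = 0.00481), and all 3 values lay below the other libraries; without CANX knockout replicate 2 its adjusted p was 0.0586.

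Aminoacyl-tRNA synthetases load transfer RNA with its amino acid, and of 22 tested in the cytosolic list 10 rose and 0 fell (1.33% and 1.86% of all tested genes), with a list median of 0.30. The library medians, 0.31, 0.29 and 0.41, overlapped with those of the others, which reached 0.35 in LMAN1 knockout replicate 3. CARS stood at 8.51, 8.43 and 8.36 against 6.58 to 8.21 and rose by 0.96 (adjusted p = 0.000282), and GARS rose by 0.88 (adjusted p = 0.000977). Both lay above the range, as did WARS (1.19) and SARS (0.60). With 1 reference group 0 of the 10 passed, and CARS had an adjusted p of 0.0932. YARS (0.72), IARS (0.63), AARS (0.62), MARS (0.89), NARS (0.56) and TARS (0.24) completed the 10, and overlapped with the other lines. Of the 10, all but TARS are ATF4 and CHOP list genes already counted above. The LMAN1 knockout was the next line for CARS, GARS and YARS, and the YARS mean of the CANX knockout exceeded it by 0.05. SARS lost its call without any 1 of the CANX knockout libraries (0.0674 to 0.0832) and AARS without replicate 1 (0.131) or 3 (0.103) or the GABARAPL2 knockout line (0.059). MARS and NARS lost theirs without any 1 CANX knockout library (0.103 to 0.153 and 0.0929 to 0.305), and WARS (0.203 and 0.0838) and TARS (0.143 and 0.179) without replicate 2 or 3. Without 1 other line MARS reached 0.109 (CALR), NARS 0.229 (GABARAP) and TARS 0.198 (CALR). The other 12 included DARS (0.09), QARS (0.01) and KARS (-0.19).

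The ER chaperones and folding enzymes induced through ATF6 and XBP1 mostly did not pass. Of 28 tested targets 1 rose and 0 fell (1.33% and 1.86% of all tested genes), and the list median was 0.25, with library medians of 0.22, 0.20 and 0.34 inside the range of the others (-0.41 to 0.36). HSPA5, the main ER chaperone BiP, differed by -0.17 (SE 0.08, adjusted p = 0.302), HSP90B1 by 0.10 (SE 0.11), PDIA4 by 0.43 (SE 0.23), DNAJB11 by 0.28 (SE 0.17) and XBP1 by 0.73 (SE 0.26, adjusted p = 0.144). The gene that passed was HERPUD1, a regulator of ER-associated degradation, which the ATF4 list holds too: it stood at 3.73, 4.17 and 3.78 against 1.96 to 3.78 and differed by 0.88 (adjusted p = 0.0472). That call was lost with 1 reference group (0.135) and without any 1 of the 3 CANX knockout libraries (0.103 to 0.239), and without the ATG7, CALR, GABARAPL2, LMAN1 or MCFD2 knockout line (0.0529 to 0.0901). ATF6 itself, singled out after its values were seen, lay above the range in all 3 libraries at a difference of 0.60, and did not pass (adjusted p = 0.0885). The difference between the 2 lists was not tested.

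Calnexin binds glycoproteins whose sugar chains have been trimmed, releases them and takes them back after UGGT1 has re-tagged misfolded ones. Of 17 tested genes of the calnexin cycle and N-glycan trimming, CANX, the targeted gene, fell and UGGT2 rose (1.86% and 1.33% of all tested genes). UGGT2, a homologue of the folding sensor UGGT1, stood at 2.49, 2.56 and 2.62 against 0.65 to 2.21 and differed by 0.99 (adjusted p = 0.0398). The UGGT2 call was lost with 1 reference group (0.118) and without any 1 CANX knockout library (0.129 to 0.145) or without the ATG7, GABARAP or GABARAPL2 knockout line (0.0746, 0.0529 and 0.0583). PDIA3, the disulfide isomerase that works with calnexin, differed by -0.08 (adjusted p = 0.753), UGGT1 by -0.11, GANAB by -0.01 and the calnexin relative CLGN by 0.44 (adjusted p = 0.591). Among 17 protein disulfide isomerases and oxidases and 27 genes of N-glycan precursor synthesis and the oligosaccharyltransferase 0 passed, with medians of 0.16 and 0.06. Over all tested genes 3.19% passed. Of 27 genes of ER-associated degradation HERPUD1 rose and UBE2G2, a ubiquitin-conjugating enzyme, fell (1.33% and 1.86% of all tested genes).

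Of the lower genes, those with the largest differences rested on few reads. GABRE, a GABA receptor subunit on chromosome X, stood at 2.57, 0.79 and 2.66 against 2.88 to 5.58. GABRE fell by 2.49 (adjusted p = 0.000376, limma, and 0.00439 with 1 reference group), on 10 reads in the 3 CANX knockout libraries against 430 in the 21 others. Such read totals come from unequal numbers of libraries, so their ratio is not a fold change. CHMP4A, of the ESCRT-III complex, fell by 2.23 (adjusted p = 0.000797) on 8 reads against 204, and MARVELD2, a tight junction protein, by 1.99 (adjusted p = 0.000117) on 22 against 673. PARG, which degrades poly(ADP-ribose), fell by 2.09 (adjusted p = 0.00503) on 21 reads, and without CANX knockout replicate 2 the difference was -1.19 (0.0648). PARG lies in the lower stretch of chromosome 10 described further on. With voom weights, which give shallow libraries less weight, CHMP4A (-1.84, adjusted p = 0.081) and PARG (-1.49, adjusted p = 0.0762) did not pass, while GABRE (-2.17) and MARVELD2 (-1.79) did. POU3F3, a neural transcription factor, stood at 5.36, 5.29 and 5.49 against 5.63 to 7.14 and fell by 1.30 (adjusted p = 2.33e-05). The pseudogene GUSBP2 (-1.47) and CH507-9B2.5 (-1.39) were lower too, although reads of near-identical copies cannot be told apart in this table.

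Further genes outside the range are named here after their values were seen. KLF5, a transcription factor of epithelial growth, differed by 1.37 (adjusted p = 0.00676), and IRS2, an insulin receptor substrate, by 0.99 (adjusted p = 0.00106). Both passed with 1 reference group (0.0225 and 0.0468), as did RAD21 of the cohesin ring (0.51, adjusted p = 0.00132; 0.0243) and RBL1, a relative of the retinoblastoma protein (0.83, adjusted p = 0.0135; 0.046). AGA, a lysosomal enzyme that cleaves asparagine-linked sugars, differed by 1.15 (adjusted p = 0.0233; 0.131 with 1 reference group), a call lost without any 1 CANX knockout library (0.0933 to 0.1) or the GABARAP knockout line (0.0536). KLF5 did not pass without CANX knockout replicate 2 (0.0843), nor RBL1 without replicate 1 (0.168). On the lower side DDX21, a nucleolar RNA helicase, fell by 0.82 (SE 0.08, adjusted p = 4.18e-06; 0.013), and NOLC1, a nucleolar phosphoprotein, by 0.76 (adjusted p = 0.000388; 0.00379). POLR2L, a small subunit shared by RNA polymerases, fell by 0.94 (adjusted p = 0.000797; 0.00722) and FKBP14, a prolyl isomerase of the ER that acts on collagen, by 0.74 (adjusted p = 0.0139; 0.0441), FKBP14 not without CANX knockout replicate 1 (0.133) or 2 (0.0537). DDX21 lies in a stretch of chromosome 10 described further on. Of the 126 genes outside the range, 16 above it and 5 below it did not pass.

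SQSTM1 and RACK1 lie beyond CANX on the long arm of chromosome 5, and the whole stretch from CANX to the chromosome end was lower. The bounds of this stretch were chosen after the values were seen. All 18 tested genes of that stretch (chr5:179678628-181272307, GRCh38) had differences below 0, from -2.33 to -0.24 with a median of -1.04, where the median over all genes was 0.01. Of these 12 passed as lower, against a background of 1.86%, and 7 lay below the range of the 21 others, against 0.476%. The stretch median per library was -1.09, -1.22 and -0.92 in the CANX knockout and -0.23 to 0.23 in the others, without overlap. The 18 tested genes just before CANX had a median of -0.02, and 0 of them passed. HNRNPH1 and RUFY1, the nearest of them, differed by -0.01 and 0.03. CANX itself, at -1.15, thus stood near the stretch median, and the part of its fall that is its own cannot be told apart from that of its neighbours.

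Within the stretch, SQSTM1, which encodes the autophagy receptor p62, stood at 4.20, 5.44 and 5.66 against 6.63 to 7.63. SQSTM1 fell by 2.04 (SE 0.21, adjusted p = 9.05e-06, limma, and 2.82e-05 with 1 reference group). Its reads in the CANX knockout were 3, 9 and 57, and replicate 3, the deepest, differed by -1.48. Without CANX knockout replicate 1 the SQSTM1 difference was -1.59 (adjusted p = 0.000124, limma). SQSTM1 was the only gene of 40 tested autophagy genes that passed, where 3.19% of all tested genes did, and that list had a median of 0.09. RACK1, a scaffold protein of the small ribosomal subunit, stood at 9.85, 9.87 and 10.04 against 10.39 to 11.17 and fell by 0.92 (SE 0.11, adjusted p = 5.73e-05). CNOT6, a deadenylase, stood at 9.11, 8.76 and 9.04 against 9.45 to 10.45 and fell by 0.98 (adjusted p = 0.000131). The glycosyltransferase genes MGAT4B (-1.23, adjusted p = 0.000668) and MGAT1 (-1.03, adjusted p = 0.0126), which build complex N-glycans in the Golgi, fell as well, MGAT1 not without CANX knockout replicate 1 (-0.66, adjusted p = 0.194) or with voom weights. TRIM52-AS1 fell by 2.33 (adjusted p = 0.0026), but not without replicate 2 (-1.53, adjusted p = 0.0506), nor with voom weights, and it overlaps another noncoding gene of its strand in GENCODE 29, between which reads may have been split. Without 1 CANX knockout library 8 to 10 of the 18 genes passed.

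**Figure D3:**
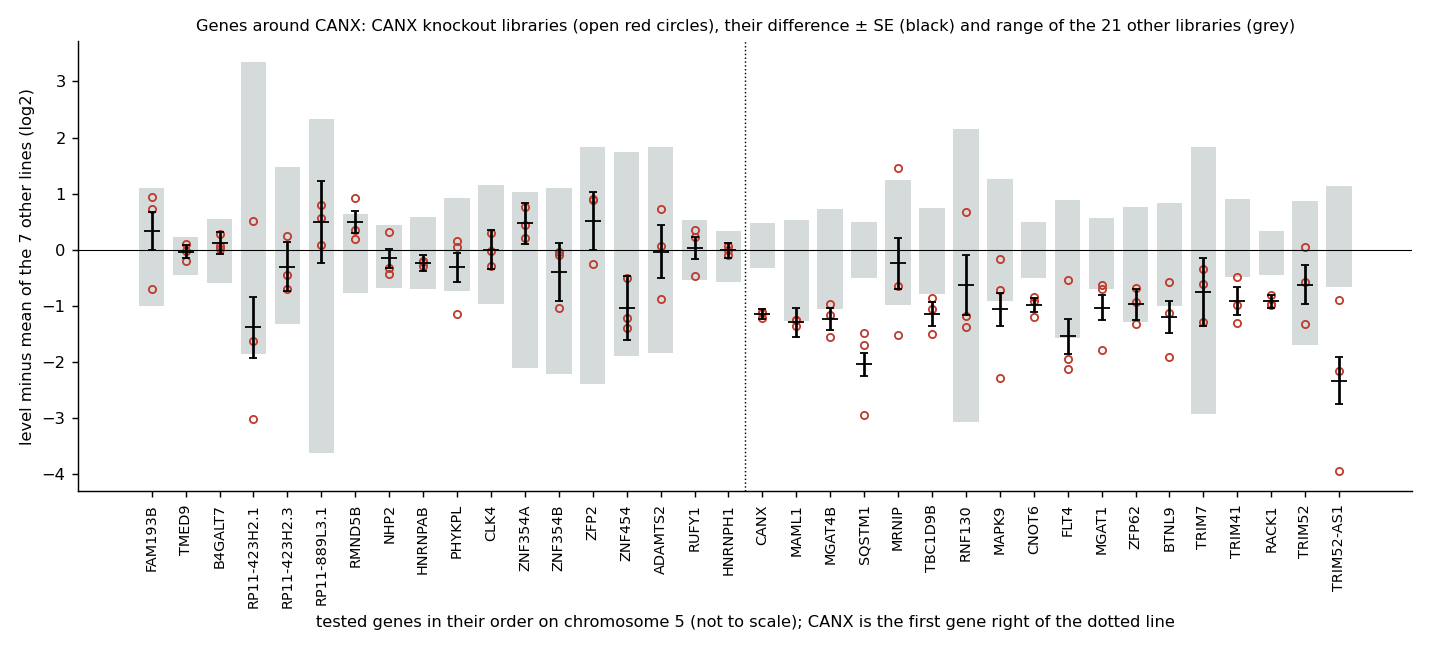
Level minus mean of the 7 other lines (y axis, log2) for 36 tested genes in chromosomal order around CANX; red circles are CANX knockout libraries, black marks their difference ± SE, grey bars the range of the 21 others. Left of the dotted line the differences scatter around 0, and from CANX to the end all 18 lie below it.

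3 further stretches stood apart, also chosen after the values were seen. On chromosome 21 from 40 Mb the median of 45 genes was -0.69, 23 passed as lower and 0 as higher, and the library medians were -0.74, -0.76 and -0.68 against -0.38 to 0.32. This stretch holds UBE2G2, at 4.52, 4.43 and 4.84 against 5.37 to 6.32 (fell by 1.21, adjusted p = 4.18e-06), SLC19A1, the reduced folate carrier, at 5.69, 5.59 and 5.52 against 6.23 to 7.50 (fell by 1.30, adjusted p = 6.81e-06), and PTTG1IP, which fell by 1.18 (adjusted p = 0.000111). The collagen gene COL6A1 (-0.99) and the respiratory chain gene NDUFV3 (-0.61) lie there too. On chromosome 10 between 40 and 75 Mb the median of 115 genes was -0.41, with 21 lower and 1 higher, DDIT4 (1.12, adjusted p = 0.0182). The DDIT4 call was lost with 1 reference group (0.229) and without CANX knockout replicate 1 (0.132) or 3 (0.0908). On chromosome 13 from 55 Mb the median of 86 genes was 0.61, with 20 higher, 1 lower and library medians of 0.59, 0.57 and 0.67 against -0.40 to 0.42. The lower gene was the pseudogene PTMAP5 (-0.43, adjusted p = 0.0412; 0.297 with 1 reference group). UGGT2, RP11-54H7.4, KLF5 and IRS2 lie in that higher stretch. The rest of these chromosomes was shifted in the same direction, but less. On chromosome 21 its median was -0.25 over 94 genes, with 11 lower and 0 higher. On chromosome 13 it was 0.17 over 118 genes (2 higher, 0 lower), and on chromosome 10 -0.11 over 330 (9 lower, 0 higher). Over all tested genes 1.33% rose and 1.86% fell.

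Together the 4 stretches hold 2.28% of the tested genes, 57 of the 215 lower genes (26.5%) and 21 of the 154 higher genes (13.6%). They hold 23 of the 55 genes below the range (41.8%) and 9 of the 71 above it (12.7%). The stretches were chosen from these same values, so shares above 2.28% follow at least in part from that choice. Among 481 windows of 5 Mb with at least 8 tested genes, the lowest median was on chromosome 5 from 180 Mb (-0.98) and the highest on chromosome 13 from 95 Mb (0.69), with the 5th and 95th percentiles of all windows at -0.23 and 0.28. What sets these stretches apart was not tested.

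**Figure D4:**
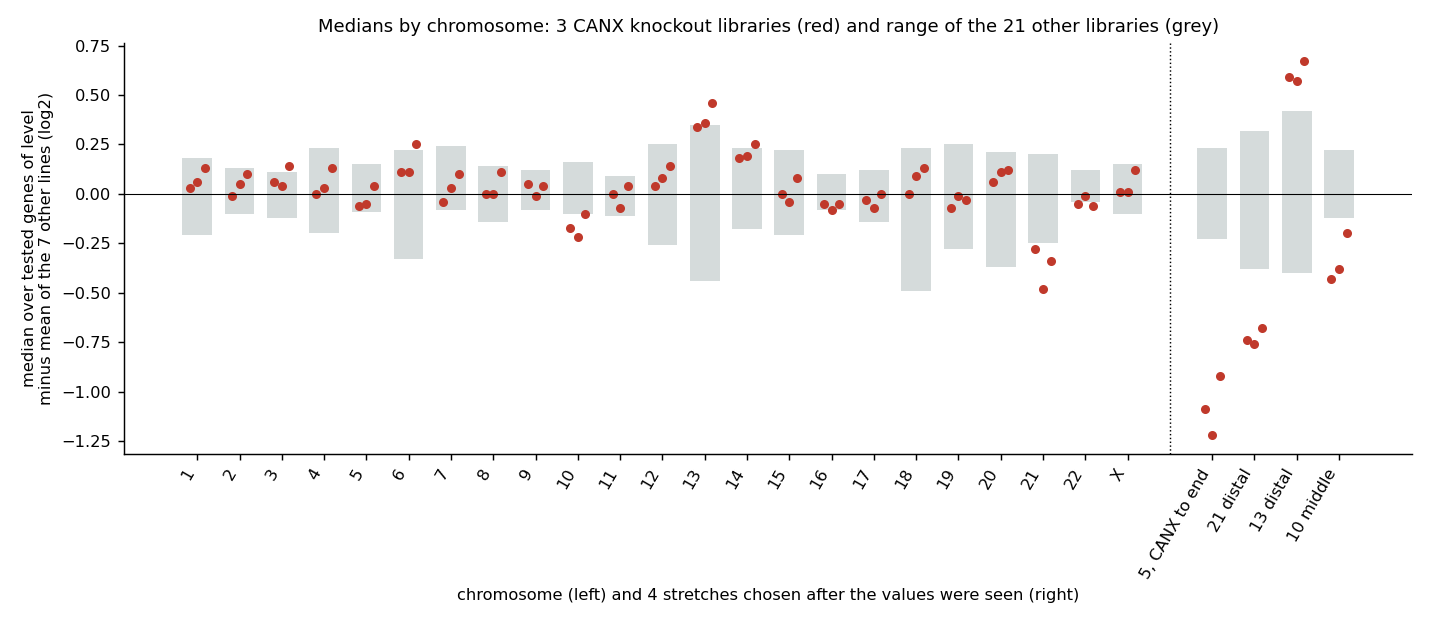
Median over tested genes of level minus mean of the 7 other lines (y axis, log2), by chromosome and for 4 stretches chosen after the values were seen; red points are the 3 CANX knockout libraries and grey bars the range of the 21 others. Chromosome 21 lies below its bar in all 3 libraries, and the stretches on chromosomes 5, 21, 13 and 10 lie outside theirs.

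Cholesterol and fatty acid synthesis supply the membranes through which secreted proteins pass. Of 29 tested genes of cholesterol and fatty acid synthesis 3 fell and 0 rose (1.86% and 1.33% of all tested genes), and the list median was -0.36. FASN, fatty acid synthase, stood at 10.89, 10.80 and 10.79 against 10.94 to 11.82, below every other library, and fell by 0.61 (SE 0.08, adjusted p = 0.00014; 0.0199 with 1 reference group). NSDHL (-0.71, adjusted p = 0.0171) and EBP (-0.73, adjusted p = 0.0274), both of late cholesterol synthesis, overlapped with the other lines and lost their calls with 1 reference group (0.198 and 0.0904). NSDHL also lost its call without any 1 CANX knockout library (0.0748 to 0.0796), and EBP without replicate 1 (0.2) or 2 (0.179) or the GABARAP (0.0538) or GABARAPL2 (0.0551) knockout line. SQLE, which makes squalene epoxide, differed by -0.37 and did not pass (adjusted p = 0.215). The library medians of the list were -0.34, -0.30 and -0.19 against -0.31 to 0.33, so the groups overlapped.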

How the data were processed

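3' RNA-seq of 24 knockout libraries (8 lines, 3 each) was analysed; 6 libraries of HEK28 and the parental line entered only 1 alternative. Groups come from the titles. Per the submitters' processing notes, FastQC, cutadapt, Bowtie and TopHat2 were run against hg38. How reads were counted and scaled is not given in the sources used here. The values deposited by the authors are log2 values of 16975 genes. From the steps of the deposited log2 values, a value is log2 of reads plus 0.5, per gene length and library size. Whole reads were recovered for 16907 genes and not for 68. Counts were then simulated under the same model for genes already recovered, and 99.92% of the values per gene and library were returned. That simulation does not test whether the model holds for the deposited values. Positions come from GENCODE 29 (GRCh38) for 16938 gene IDs.

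Genes with at least 12.78 CPM (10 reads at the median depth of 782766) in at least 3 libraries and 15 reads in all were tested, 11557 in number, 10234 of them protein-coding. CD4 and ALDH1L2 reached that CPM threshold only in the CANX knockout libraries. The fit was limma 3.58.1 in R 4.3.3 with trend and robust moderation, 1 coefficient per line, two-sided, on the values as deposited, with Benjamini-Hochberg adjustment over all genes. On data simulated for this comparison (11489 genes), 57% of 2-fold and 92% of 4-fold changes were recovered, with 16 false calls, so smaller changes can be missed. Of the table, 21 symbols had been turned into dates.

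Named genes are the targeted genes and F8, the 12 with the largest difference in each direction among genes that passed, lay outside the range and had at least 60 reads, up to 6 passing members per list by adjusted p, the neighbours of CANX, and those whose naming completes a count. The members and the 36 gene lists were chosen with earlier results of these data known. The replicate numbers did not pair the libraries: the mean correlation of deviations of same-numbered libraries was 0.00137 and the lowest -0.201. Alternatives were other normalisations and offsets, voom weights, no filter, other sets of libraries, 1 reference group, a replicate block, and leaving out lines and replicates.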

Additional observations from a re-analysis of the deposited data

How the results depend on the processing

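The 369 genes that passed became 821 with voom weights, 158 with all 30 libraries in the fit and 86 with the other lines as 1 group. They were 390 after quantile normalisation, 327 with an offset of 2 reads, 269 without a filter, 268 to 432 without 1 other line, and 164 to 406 without 1 replicate. With the replicate block 324 passed, 133 higher and 191 lower, and the pairing of numbers was not borne out by the correlations. The 126 genes outside the range were 136 after quantile normalisation or without a filter, 141 to 173 without 1 other line and 253 to 313 without 1 CANX knockout replicate, where 2 values have to lie outside instead of 3.

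The median of the ATF4 and CHOP list, 0.88, was 0.81 without the CALR knockout line, 0.83 without the MCFD2 knockout line, and 0.84 to 0.92 without 1 replicate. The chromosome 5 median of -1.04 was -1.20 to -0.99 without 1 replicate. CANX passed in each alternative run, and ranged from -1.17 to -1.12 without 1 replicate. The F8 difference of -0.06 was 0.03 without the CALR knockout line and -0.11 to -0.04 without 1 replicate. GABARAP, at -0.34, ranged from -0.56 to 0.03 without 1 replicate, the latter without CANX knockout replicate 1. The causes of these shifts were not tested. Of the 83 named genes that passed, 34 also passed with 1 reference group, 53 with all 30 libraries, 70 of 79 with voom weights (not JUN, PARG, ADM, CHMP4A, FLT4, MGAT1, BTNL9, TRIM52-AS1 and EBP), and 53, 53 and 62 without CANX knockout replicates 1, 2 and 3; 0 changed direction. Depth limits genes with few reads in the CANX knockout libraries, 2 of which had 341301 and 397490 recovered reads.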

Other observations

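Large housekeeping groups differed little in the CANX knockout. Of 79 cytosolic ribosomal protein genes RPS24 (-0.45, adjusted p = 7.39e-05) and RPLP1 (-0.22, adjusted p = 0.0472) fell, a share close to the 1.86% of all tested genes, and the list median was -0.07. RPS24 stood at 10.87, 11.14 and 11.06 against 11.32 to 11.73, below every other library, while RPLP1 overlapped with the others and its call was lost with 1 reference group (adjusted p = 0.584) and without any 1 CANX knockout library (0.0965 to 0.254). Reads of processed pseudogenes cannot be told apart from those of ribosomal protein genes here. Of 77 genes of oxidative phosphorylation NDUFS6 (-0.58), NDUFV3 (-0.61) and ATP5I (-0.55) fell, with a list median of 0.00, where 1.86% of all tested genes fell. NDUFS6 overlapped with the other libraries, and its call was lost with 1 reference group (0.0932). The ATP5I call (adjusted p = 0.0338) was lost with 1 reference group (0.135) and without any 1 CANX knockout library (0.0921 to 0.139). Of 35 proteasome subunits, 73 mitochondrial ribosomal proteins, 22 cytosolic heat shock chaperones and 30 genes of G2 and mitosis 0 passed in limma, with list medians of -0.04, -0.07, -0.19 and 0.21. Over all tested genes 3.19% passed.

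Of 35 tested translation factors 2 rose and 2 fell (1.33% and 1.86% of all tested genes), and EIF4EBP1 was described above. EIF1, which selects start codons, rose by 0.52 (adjusted p = 0.0224) and lay above the range, a call lost with 1 reference group (0.144) and without CANX knockout replicate 1 (0.131) or 3 (0.109) or the CALR knockout line (0.0588). EIF4G1, the scaffold of cap-dependent initiation, stood at -0.29 (SE 0.05, adjusted p = 0.00319; 0.39 with 1 reference group). EEF1D, an elongation factor subunit, fell by 1.74 (adjusted p = 0.00566) on 51 reads, and without CANX knockout replicate 2 the difference was -1.23 (0.0959), and with 1 reference group its adjusted p was 0.0678. Of 16 tested immediate early genes EGR1 and JUN fell, where 1.86% of all tested genes did. JUN differed by -0.34 (adjusted p = 0.0493), a call lost with 1 reference group (0.509), with voom weights, without CANX knockout replicate 1 (0.286) or 2 (0.284), and without the ATG7, CALR, GABARAP or GABARAPL2 knockout line (0.0557 to 0.217). EGR1 fell by 1.01 (adjusted p = 0.00884), a call lost with 1 reference group (0.306) and without CANX knockout replicate 2 (0.0926). Of 26 tested p53 targets SESN2 (0.92) and CCNG1 (0.65) rose (1.33% of all tested genes), and SESN2 is an ATF4 target too. The CCNG1 call (adjusted p = 0.0261) was lost with 1 reference group (0.281), without any 1 CANX knockout library (0.0621 to 0.161) and without the GABARAP knockout line (0.0737).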
